A study of Mus musculus with 82 samples.

Results

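Heat shock proteins and chaperones were examined across hematopoietic stem cells (HSCs) and progenitors of the mouse. The set held every gene of the count tables whose symbol belongs to the Hspa, Hspb, Hsp90, Dnaja, Dnajb, Dnajc or Cct family, together with Hspd1, Hspe1 and Hsph1 and without pseudogenes, which came to 81 of 55376 genes. The families were taken by name, with earlier results of these data known. By family these were 28 Dnajc, 13 Dnajb, 4 Dnaja, 13 Hspa, 8 Hspb, 3 Hsp90 and 9 Cct genes, Hspd1 with Hspe1, and Hsph1.

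Chaperones help proteins to fold, refold or reach their compartment. The Hspa (Hsp70) proteins bind exposed hydrophobic stretches in cycles of ATP hydrolysis, the J-domain proteins (Dnaja, Dnajb, Dnajc) deliver clients to them and set off that hydrolysis, and Hsph1 exchanges their nucleotide. Hsp90 proteins finish the folding of kinases and receptors, the small Hspb proteins hold unfolded clients without ATP, and Hspd1 with Hspe1 in mitochondria and the Cct ring in the cytosol enclose a client in a chamber. The cytosolic stress response runs through heat shock factor and that of the endoplasmic reticulum (ER) through Xbp1, Atf6 and Atf4. HSCs are known for a low rate of protein synthesis and for their sensitivity to misfolded protein.

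All mRNA came from male C57BL/6J mice. HSCs, sorted as lineage-negative Sca-1+ Kit+ CD34- Flk2- CD150+ marrow cells, were taken from young mice of 3 to 4 months (4 libraries, pooled animals) and from old mice of 24 to 26 months (8 libraries, 1 animal each). A further 12 libraries held old HSCs transduced with lentivirus carrying either a control hairpin (shControl) or 1 of 2 hairpins (shRNA1, shRNA2) designed against a shorter transcript of Btaf1, a TBP-associated ATPase. Of these, 6 were GFP-positive (transduced) cells harvested after 3.5 days of culture. The other 6 were GFP-positive CD45.2+ donor HSCs from irradiated CD45.1 female recipients, re-sorted through a gate with CD48 in place of CD34 and Flk2. Each transplanted library was a pool of 2 to 4 recipients, and its cells had been cultured briefly before transplantation. Each setting had 2 libraries per hairpin. Common myeloid progenitors (CMP), granulocyte-macrophage progenitors (GMP) and megakaryocyte-erythroid progenitors (MEP) of young mice gave 2 libraries each. The HSC, hairpin and progenitor libraries formed separate experiments, so levels were tested only within each. Among the hairpin libraries, culture and transplantation were separate settings, and tests between these settings were made as well.

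The libraries held 20475764 to 24654742 reads on genes in young and old HSCs, 37292602 to 42737054 in the hairpin experiment and 33177394 to 36510850 in the progenitors. The summed level of HSC markers (Procr, Slamf1, Hlf, Mecom, Fgd5, Hoxb5) was 1322 to 1601 CPM (reads scaled to the library's depth) in young and old HSCs and at most 35.6 CPM in any progenitor library. The summed erythroid markers reached 6482 to 6917 CPM in MEP and the myeloid markers 60320 to 61247 CPM in GMP, and the megakaryocyte markers in MEP summed to only 24.4 to 25.1 CPM. Young library 4 stood apart with 256 CPM of plasma cell markers, against at most 38.4 CPM in the old libraries, and results with and without it are given. Most of that sum was 1 gene, Jchain, at 241 CPM. Mzb1, Prdm1 and Sdc1 were at 1.39, 4.90 and 8.62 CPM there, each the highest of the young libraries. Jchain also made up most of the old maximum (31.7 CPM). In bulk RNA, fewer cells of a type and less RNA per cell cannot be told apart. Levels below are CPM normalized by the trimmed mean of M values (TMM) within each experiment.

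The promoter sequences are shown to give the members that hold the written-out binding letters of the cytosolic and of the ER response. Whether holding them went with a change in mRNA was not tested. RefSeq windows (GRCm38.p6, 250 bases before to 50 bases after each transcript start) were held for 66 of the 81 members. The ER stress element was searched as CCAAT followed after 9 bases by CCACG, on both strands. It occurred in 3 members, Hspa5, Hsp90b1 and Dnajc3, which was 4.55% of the members with a window against 0.137% of 27025 genes. In the lines below capitals mark the fixed letters of the element, 5′ to 3′ along the gene's strand, and the second Hsp90b1 match lies on the opposite strand and is shown as its complement reads.
Hspa5, chr2:34772021-34772047, plus strand: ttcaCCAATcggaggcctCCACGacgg
Dnajc3, chr14:118937823-118937849, plus strand: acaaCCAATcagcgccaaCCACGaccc
Hsp90b1, chr10:86705634-86705660, minus strand: aagcCCAATcgcaaggagCCACGcttc
Hsp90b1, chr10:86705529-86705555, minus strand: agtgCGTGGtgaggcacgATTGGtgag

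The heat shock element was searched in its long form, TTC, GAA and TTC with 2 bases between each, on both strands. It occurred in 4 members (Dnajb6, Hspd1, Hspe1, Hsph1), 6.06% against 0.662% of all genes, and the shorter core GAANNTTC, which lies inside it, occurred in 16 members, 24.2% against 9.04%. Hspd1 and Hspe1 are divergent neighbours whose windows share this stretch, and it holds a pair of overlapping matches that counts for both genes; 1 is shown under each. Capitals again mark the fixed letters, and the Dnajb6 match lies on the opposite strand and is shown as its complement reads. A match is a description of the letters and not evidence of binding.
Hspe1, chr1:55088055-55088075, plus strand: tccgTTCtaGAAccTTCcgga
Hspd1, chr1:55088060-55088080, minus strand: ggccTTCcgGAAggTTCtaga
Hsph1, chr5:149636284-149636304, minus strand: cagaTTCtgGAAagTTCtcct
Dnajb6, chr5:29735848-29735868, plus strand: ccgaGAAtcTTCcgGAAcgct
The core alone is shown for Hspb1, which rose most with age, and for Hspa1a, which stood apart in GMP.
Hspb1, chr5:135887798-135887813, plus strand: aagaGAAgtTTCcaga
Hspb1, chr5:135887818-135887833, plus strand: ggcaGAAccTTCctgg
Hspa1a, chr17:34972249-34972264, minus strand: gctgGAAgaTTCctgg

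With age, 14 of the 74 members tested rose and none fell. DESeq2 called 14 higher and 2 lower (Dnajc9 and Hspa12b), and library size alone, without TMM, called 9 higher and 3 lower (the same genes and Hspa14). A change above 1.5-fold was reached by 2 of the risers, Hspb1 and Dnajc6, against 4.8% of all genes higher and 2.77% lower by that amount, and the 12 others moved less, among them Hspa2, Dnajc3, Hsp90aa1, Dnajb1 and Hspa5. The share of members that rose, 18.9%, compares with 12.8% of 21522 genes, and 8.28% of all genes fell. The members' median log2 fold change was 0.04 against 0.00 for all genes, and 55 of 74 members were above 0 against 50.4% of all genes. Calls were made with edgeR's quasi-likelihood test at a Benjamini-Hochberg adjusted p below 0.05, as in all later comparisons of mRNA. Several members of the core set chosen for naming did not pass. Hspa8 gave a log2 fold change of -0.00, Hsp90ab1 0.03, Hspd1 -0.05, Hspe1 -0.09, Hsph1 0.02 and Hspa9 0.04.

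Hspb1 encodes a small heat shock protein that holds unfolded clients and binds actin. It was measured at 0.61 to 0.87 CPM in the 4 young libraries (median 0.67) and at 1.30 to 1.92 CPM in the 8 old ones (median 1.69). Every old library lay above every young one, and the log2 fold change was 1.24 ± 0.23 (SE, 2.36-fold, adjusted p = 0.0003). The level is low, and 48.8% of the 50-base windows of Hspb1 transcripts also occur in the pseudogene Hsp25-ps1, so the source of some reads is uncertain. Across the progenitors Hspb1 was at 0 counts in 5 of 6 libraries.

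Dnajc6 encodes auxilin, the J-domain protein that helps Hspa8 strip clathrin from vesicles. Its level was 5.88 to 10.2 in young (median 8.13) and 15.6 to 21.8 CPM in old HSCs (median 17.9). The groups did not overlap, with a log2 fold change of 1.18 ± 0.12 (2.26-fold, adjusted p = 2.1e-07). Hspa2, an Hsp70 best known from the testis, went from 14.1–19.4 to 21.98–26.7 CPM, again without overlap (0.51 ± 0.08, adjusted p = 4.2e-05).

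Among ER chaperones, 4 of 8 rose, of which Dnajc3 alone passed in all 12 fits that left out 1 library. Hspa5 passed in 8 of them, Dnajc10 in 4 and Dnajc1 in 3. Dnajc3, a co-chaperone of Hspa5 that also inhibits the eIF2α kinases, was at 130 to 142 in young and 166 to 190 CPM in old libraries, and the groups did not overlap (0.39 ± 0.04, adjusted p = 7.2e-08). Hspa5 (BiP), the ER Hsp70, was at 377 to 399 in young and 373 to 462 CPM in old libraries, which overlapped (0.14 ± 0.04, adjusted p = 0.020). The other risers were Dnajc1 (0.12) and Dnajc10 (0.10), whereas Hsp90b1, the ER Hsp90, gave -0.02 and Dnajb9, an ER J-domain protein induced by the unfolded protein response, -0.02. The median of the 8 ER members was 0.11. With library size alone in place of TMM, a scaling tried after seeing the data that moved the median of all genes by -0.05, 1 of the 8 still passed.

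Genes of the ER stress response were counted from a separate list. Of 15, 6 rose and none fell, namely Hyou1 (0.28), Calr (0.20), Sil1 (0.17), Pdia4 (0.16), Pdia3 (0.16) and Atf6 (0.16). Hyou1 and Sil1 exchange the nucleotide of Hspa5, Calr folds glycoproteins and the Pdia genes encode disulfide isomerases. Of 27 regulators and co-chaperones of the heat shock system, Ptges3, the Hsp90 co-chaperone p23, rose (0.14) and Fkbp4, another Hsp90 partner, fell (-0.23), and of 9 mitochondrial quality control genes Clpx and Hscb rose.

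Among the cytosolic members listed as heat-inducible, 4 of 12 rose. The list was Hspa1a, Hspa1b, Hspa8, Hsph1, Hspa4l, Hspb1, Dnaja1, Dnaja4, Dnajb1, Dnajb4, Hsp90aa1 and Hsp90ab1. It thus includes the constitutive forms Hspa8 and Hsp90ab1. Hsp90aa1, the inducible Hsp90, was at 362 to 391 in young and 400 to 476 CPM in old HSCs, without overlap (0.23 ± 0.04, adjusted p = 0.0002). Dnajb1, the main J-domain partner of inducible Hsp70, was at 112 to 130 and 124 to 151 CPM (0.21 ± 0.05, adjusted p = 0.0040), so that the ranges overlapped. Dnajb4 gave 0.28 ± 0.06. The stress-inducible Hsp70 genes themselves moved differently between libraries of 1 group: Hspa1b was at 1.54, 1.92, 3.92 and 5.77 CPM in the young libraries against 2.31 to 3.48 CPM in the old, with a log2 fold change of -0.25 that did not pass, and Hspa1a gave -0.71, also not passing. Hspa1a and Hspa1b share 60.3% and 62.3% of their 50-base windows, so their reads cannot be assigned with certainty. Of the 7 mitochondrial members 1 rose, Dnajc15 (0.19), and none of 7 Cct subunits passed, with log2 fold changes of -0.02 to 0.08. These 7 (Cct2, Cct3, Cct4, Cct5, Cct6a, Cct7, Cct8) form the Cct group throughout. It leaves out the low Cct8l1 and Cct6b, a testis form, which was at 0.63 to 1.64 in young and 1.13 to 2.21 CPM in old libraries (0.30, not passing). Tcp1, another subunit of the ring, lies outside the rule by name and was counted among the regulators and co-chaperones. Under library size alone the medians of the cytosolic, mitochondrial and Cct groups lay below 0.

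**Figure D1:**
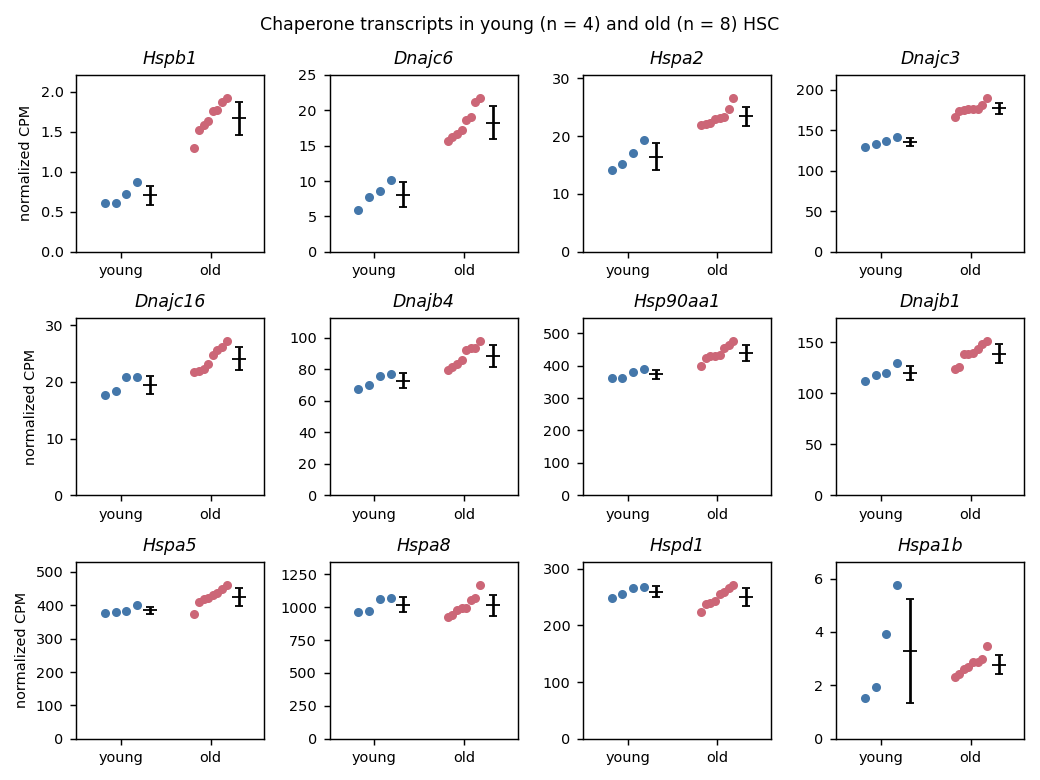
Normalized CPM (linear axes from 0) of 12 chaperone genes in 4 young and 8 old HSC libraries, with 1 point per library and bars for the mean ± SD. Hspb1, Dnajc6, Hspa2, Dnajc3, Dnajc16, Dnajb4 and Hsp90aa1 show old libraries all above the young ones, Dnajb1 and Hspa5 overlap, and Hspa8 and Hspd1 lie at the same height in both groups.

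The groups did not overlap for 10 of 74 members (13.5%), against 14.3% of all genes. Leaving out 1 library at a time, 8 of the 14 risers passed in all 12 fits (Dnajb1, Dnajb4, Dnajc16, Dnajc3, Dnajc6, Hsp90aa1, Hspa2, Hspb1). Without young library 4, which holds the high Jchain level, 11 members rose. Dnaja2, Dnajc1, Dnajc10 and Dnajc15 no longer passed, and Hspb9 did (log2 fold change 1.33). Over all 12 fits the log2 fold changes of these lost members stayed above 0 (Dnaja2 0.09 to 0.15, Dnajc1 0.10 to 0.13, Dnajc10 0.08 to 0.12, Dnajc15 0.15 to 0.21). The lowest count of risers, 8, came without young library 2, and 9 came without young library 1. Cell markers moved with age too: the B cell list summed to 81.1–149 in young and 33.9–42.0 CPM in old libraries, and the megakaryocyte list to 473–500 and 875–1222 CPM. The erythroid list, of which 5 of 6 genes were lower with age, summed to 155–221 and 28.7–101 CPM. Their part in the members' changes was not tested.

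Chromatin at the members' promoters was compared in young and old HSCs by ATAC-seq, which counts transposase cuts in open chromatin (4 young and 4 old libraries), and by H3K27ac ChIP-seq. Of 68 promoter regions covering 66 members, none passed the rule for a changed region (1.5-fold, adjusted p below 0.01), against 1.8% higher and 1.91% lower among 15068 promoter regions and 10.1% and 2.9% among all 89245 regions tested. At an adjusted p below 0.05, 27 member regions were lower and 1 higher, against 37.2% and 5.3% of all promoter regions and 15.3% and 18.4% of all regions. The members' median log2 fold change was -0.11, and that of all promoters -0.14.

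The region higher at the looser limit lies at an internal start of Dnajc6 (chr4:101549982-101551194) and did not reach 1.5-fold. It had 11.4, 11.6, 13.7 and 14.5 in young and 14.02, 15.6, 15.9 and 16.7 CPM in old libraries, which overlapped (log2 fold change 0.30 ± 0.09, adjusted p = 0.0086). The other Dnajc6 regions gave 0.20 and -0.02 and did not pass. At Hspb1 (chr5:135887563-135888358) accessibility gave 0.36 ± 0.18 (adjusted p = 0.11), with 1.95 to 3.78 in young and 2.99 to 4.09 CPM in old libraries.

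Accessibility and mRNA moved in opposite directions at some promoters, of which 2 are given. Lower accessibility was common, with 37.2% of all promoter regions lower at an adjusted p below 0.05 and a median log2 fold change of -0.14. Neither of the 2 regions passed the 1.5-fold rule. The promoter of Hsp90aa1 (chr12:110695683-110696815) was at 34.0, 38.3, 38.9 and 40.5 in young and 20.1, 26.2, 27.4 and 27.9 CPM in old libraries (-0.55 ± 0.07, adjusted p = 1.07e-07), while its mRNA rose. This was the lowest value of the 68 regions, and the libraries did not overlap. The Dnajc3 promoter (chr14:118937316-118938560), which holds the element printed above, gave -0.23 ± 0.04, also with a higher mRNA.

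**Figure D2:**
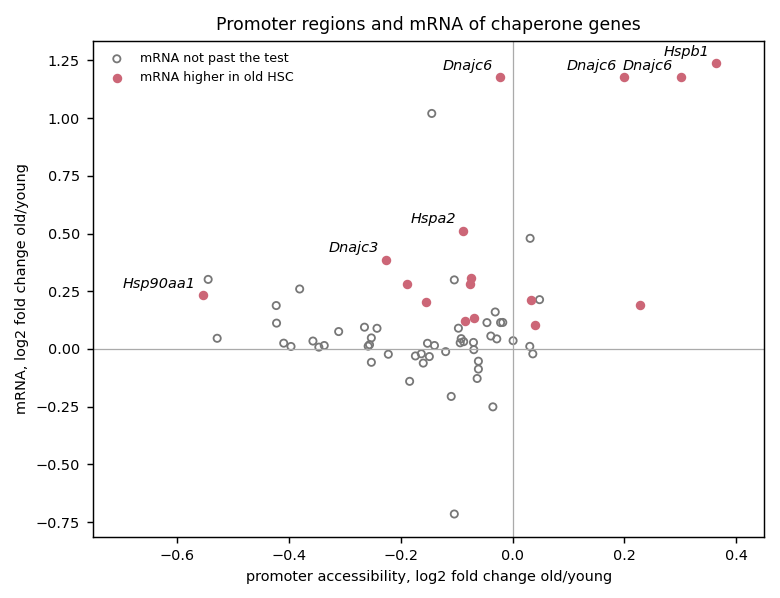
Log2 fold change old against young of promoter accessibility (horizontal) and of mRNA (vertical) for the promoter regions of chaperone genes whose mRNA was tested, with 1 point per region and filled points for genes whose mRNA rose. Hsp90aa1 lies farthest left at -0.55 with a higher mRNA, and Dnajc6 appears 3 times because it has 3 start regions.

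H3K27ac, a mark of active promoters, was summarised by the authors as a signal per peak in 2 young and 2 old libraries. No test was run on it, and a difference was described, after the study's rule, as a ratio of means above 1.5 with each old library at least 1.2-fold from each young one. By that rule 1 of 77 promoter peaks of members was higher and none lower, against 2.71% and 1.1% of 13392 promoter peaks. The count rested on single libraries: 5 peaks met the rule without young library 1, 4 without old library 1 and 3 without old library 2. The peak with all libraries is at Dnajc6 (chr4:101507966-101509416), with signals of 2.33 and 1.79 in young and 3.45 and 3.501 in old HSCs, a ratio of 1.69. A second peak in the Dnajc6 gene body (chr4:101510631-101511463) went from 0.76 and 1.26 to 2.45 and 3.18. The Hspb1 promoter gave 0.92 and 0.90 against 1.22 and 1.501, a ratio of 1.498 that stayed just under the limit. The median log2 ratio of the members was -0.03, as for all promoter peaks.

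Young HSC promoters were also sorted by H3K4me3, a mark of promoters poised or active, and H3K27me3, a mark of Polycomb repression. Promoters of 65 members had H3K4me3 and no H3K27me3, and their median mRNA level in young HSCs was 71.2 CPM. Both marks were present at 9 members (Dnajc22, Dnajc6, Hspa12a, Hspa1a, Hspa1b, Hspa1l, Hspa2, Hspb1, Hspb2; median 1.64 CPM). H3K27me3 alone lay over 6 members (Cct8l1, Dnajb13, Dnajb8, Dnajc5b, Dnajc5g, Hspb3; median 0.217 CPM), and Dnajb7 had neither. Of the members that passed with age, the 3 with the largest rise, Hspb1, Dnajc6 and Hspa2, had both marks in young HSCs, a count noted after the values were seen. Hspb9, which had H3K4me3 alone, gave a larger log2 fold change than Hspa2 (1.02 ± 0.38) at 0.31 ± 0.12 in young and 0.64 ± 0.15 CPM in old libraries, but did not pass (adjusted p = 0.064). Bulk ChIP-seq does not tell both marks in 1 cell from a mixture of cells.

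The hairpins lowered Btaf1 mRNA in culture. Btaf1 was at 145 and 148 CPM with shControl, 113 and 122 CPM with shRNA1 and 117 and 119 CPM with shRNA2 (log2 fold change -0.31 ± 0.05, adjusted p = 0.0015). In transplanted HSCs the values were 154 and 160 CPM with shControl, 125 and 133 CPM with shRNA1 and 114 and 112 CPM with shRNA2, which did not pass across all genes (-0.37 ± 0.08, adjusted p = 0.79). Counts per gene do not separate the shorter transcript from the long one. The question asked of the members was whether knockdown in old HSCs changed chaperone transcripts.

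In culture, 2 of 73 members fell with both hairpins in 1 group and none rose, against 1.66% and 1.7% of 19763 genes. Hspa9 (mortalin), the mitochondrial Hsp70 that pulls proteins through the inner membrane, was at 749 and 732 CPM with shControl, 663 and 672 with shRNA1, and 662 and 656 with shRNA2 (-0.16 ± 0.03, adjusted p = 0.019). Hspa12b, an atypical Hsp70 of endothelial cells, was at 49.1 and 47.3 CPM with shControl and 35.8 to 39.6 CPM in the 4 hairpin libraries (-0.34 ± 0.07, adjusted p = 0.0098). In both genes every hairpin library lay below every control library, and 31 of 73 members had groups that did not overlap (42.5%, against 25.9% of all genes). Leaving out either control library, no member passed as lower, although Hspa9 still gave -0.17 to -0.14 and Hspa12b -0.37 to -0.32 (adjusted p of 0.10 to 0.31). The Cct group of 7 gave values below 0, -0.11 to -0.04, and none passed, whereas Cct6b gave 0.53 ± 0.46. The members' median was -0.04 against 0.00 for all genes, and 4 of 5 proliferation markers were lower in the same comparison (summed level 1420 to 1439 CPM with shControl and 1164 to 1280 CPM with the hairpins), whose part was not tested.

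Fitted against the same controls in a model with the hairpins kept apart, shRNA1 gave 15 members lower and 3 higher (5.27% and 3.78% of all genes) and shRNA2 gave 8 lower and 1 higher (4.76% and 3.92%). The hairpins share their control libraries, so the lists are not independent. Lower with each of them were 5 members, Cct7, Hsp90b1, Hspa12b, Hspa4 and Hspa9. Cct7 gave -0.12 ± 0.03 with shRNA1 and -0.10 ± 0.03 with shRNA2, and Hspa4, an Hsp110-type nucleotide exchanger, -0.13 ± 0.04 and -0.15 ± 0.04. Hsp90b1 was at 834 and 860 CPM with shControl, 746 and 774 with shRNA1 (-0.15 ± 0.03) and 778 and 780 with shRNA2 (-0.12 ± 0.03). Dnajb6 was singled out after its values were seen. This J-domain protein, which holds back the aggregation of polyglutamine proteins, was at 84.8 and 89.9 CPM with shControl, 89.7 and 91.4 with shRNA1, and 55.8 and 55.0 with shRNA2. Against control, shRNA2 gave -0.66 ± 0.06 (adjusted p = 1.06e-08) and shRNA1 gave 0.06 ± 0.06 (adjusted p = 0.64). In transplanted cells the same gene was at 94.5 and 95.4 CPM with shControl, 97.4 and 93.1 with shRNA1, and 79.0 and 74.5 with shRNA2 (-0.30 ± 0.07 for shRNA2, adjusted p = 0.23). Tested against each other in the same model, a contrast added after the data were seen, shRNA2 was below shRNA1 by a log2 difference of -0.71 ± 0.06 in culture (adjusted p = 2.9e-09; at most 7.9e-06 over 10 alternatives). In transplanted cells the difference was -0.31 ± 0.07 and did not pass (adjusted p = 0.21; 0.014 to 0.49 over 10 alternatives, of which DESeq2 and the fit without a filter passed). In culture 7 of 73 members differed between the hairpins, against 5.59% of all genes, and 3 to 10 did over the alternatives.

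In transplanted HSCs no member passed in either direction with the hairpins together, nor with either hairpin alone, and 0% of 20350 genes passed. At an unadjusted p below 0.05 there were 3 members, Dnajc12 (0.49), Dnajc8 (0.13) and Hsp90ab1 (-0.20), against 5.59% of all genes (1138). DESeq2, run as an alternative, called no member. Hspa9 was at 521 and 491 CPM with shControl and 455 to 514 CPM with the hairpins, and Hspa12b at 31.3 and 37.2 against 30.2 to 39.7 CPM, so both genes overlapped between groups. The difference between the effects in culture and after transplantation was tested directly: no member passed (0.21% of 21443 genes did), 8 members had an unadjusted p below 0.05 (8.75% of all genes did), and DESeq2 called Dnaja1 alone. For Hspa12b the difference was -0.39 ± 0.14 (adjusted p = 0.42).

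The shControl libraries also allow cultured and transplanted old HSCs to be set side by side. Of 73 members 29 were higher in culture and 9 lower, against 24% and 24.3% of 19518 genes. Most of the rise lay in the ER (6 of 8 higher, 1 lower), in mitochondria (5 of 7) and in the Cct group (5 of 7, log2 fold changes of 0.12 to 0.45 over the 7, with Cct6b at -0.60 and not passing), and the members' median was 0.17 against -0.01 for all genes. Without TMM, which moved the median of all genes by -0.15, 24 members were higher and 16 lower. Culture, the stay in an irradiated recipient, pooling of recipients, time since transduction and the sort gate differ together between these groups and cannot be told apart. The paper names the RNA extraction and cDNA kit for transplanted HSCs but not for cultured ones, so preparation may differ as well.

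Hspa5 was at 1210 and 1198 CPM in culture and 623 and 551 CPM after transplantation (1.05 ± 0.06; 2.07-fold, adjusted p = 2.4e-06). Hsp90b1 was at 834 and 860 against 522 and 461 CPM (0.80 ± 0.06). The other ER members that passed as higher were Hspa13 (0.73), Dnajb11 (0.50), Dnajc10 (0.50) and Dnajc3 (0.17 ± 0.05). Dnajc1 was the ER member that was lower (-0.32). Other members at the top were Hspb8, which works with Bag3 in autophagy (5.94 and 6.20 against 2.62 and 2.05 CPM; 1.39 ± 0.23), Dnajc21, a ribosome maturation factor (46.0 and 47.7 against 21.1 and 23.3 CPM; 1.09 ± 0.09), and Hspa14, a ribosome-bound Hsp70 (0.90). The ER stress list moved the same way, with 13 of 15 genes higher, led by Xbp1 (1.86), Atf4 (1.21), Sdf2l1 (1.06) and Manf (0.86).

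In mitochondria Hspa9 (0.56), Hspe1 (0.56) and Hspd1 (0.52) were higher in culture, as was Hsp90aa1 in the cytosol (0.60 ± 0.05). The inducible Hspa1a and Hspa1b did not pass. The lower members were Dnajb13, a sperm flagellum protein (0.92 and 0.90 against 1.96 and 1.92 CPM; -1.08 ± 0.32), Dnajc4 (7.52 and 7.61 against 13.0 and 13.3 CPM; -0.79 ± 0.14), Dnaja4 (13.4 and 14.3 against 23.5 and 21.3 CPM; -0.68 ± 0.12), Dnajc28, Dnajc6, Dnajb14, Dnajb4, Dnajc1 and Dnajc7. Among regulators 13 of 27 were higher and 4 lower, with Bag6 (1.17), Bag2 (0.77) and Ptges3 (0.73) up and the prefoldin subunit Pfdn5 (-0.60) down. The count of lower members rested on single libraries: it was 3 without either cultured control and 14 without transplanted control 2. Proliferation markers summed to 1420–1439 CPM in culture and 329–464 CPM after transplantation, and megakaryocyte markers to 1325–1355 and 412–588 CPM. HSC markers went the other way, with 4 of 6 lower in culture and sums of 575–583 and 985–1141 CPM. Their part was not tested.

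Progenitors divided by compartment, with most listed ER chaperones highest in GMP. Most mitochondrial chaperones, cytosolic chaperones of the heat-inducible list and Cct chaperones were highest in MEP. Against CMP, 37 of 70 members were higher in GMP and 6 lower (18.8% and 16% of 18234 genes). That balance depends on scaling: with library size alone, which moved the median of all genes by -0.21, 13 were higher and 18 lower. In MEP against CMP 40 were higher and 13 lower (28.9% and 35.6%), and in MEP against GMP 34 were higher and 20 lower (27.7% and 33.7%). The members' medians were 0.22, 0.31 and 0.16 against 0.01, -0.07 and -0.03 for all genes.

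The ER members showed the clearest order. In GMP 7 of 8 were above CMP, in MEP 6 of 8 were below CMP and 1 above, and all 8 were lower in MEP than in GMP (median -1.34). Hspa5 was at 1094 and 1025 CPM in CMP, 2177 and 2110 in GMP, and 836 and 782 in MEP (GMP against CMP 1.02 ± 0.05; MEP against GMP -1.41 ± 0.05, adjusted p = 7.9e-09 and 1.2e-11). Hsp90b1 was at 863 and 740, 1631 and 1521, and 598 and 521 CPM. Dnajc3 was at 171 and 164, 330 and 312, and 130 and 136 CPM. In these 3 genes no library of 1 population overlapped another. Hspa13 (0.79), Dnajb11 (0.76), Dnajc10 (0.54) and Dnajb9 (0.53) were also higher in GMP than in CMP. Dnajb9 was at 26.6 and 24.3 CPM in CMP, 37.1 and 36.7 in GMP and 9.45 and 9.72 in MEP. The ER stress list moved likewise: 14 of 15 genes were higher in GMP than in CMP, and in MEP against GMP 12 were lower (Sdf2l1 -2.76, Calr -2.43, Xbp1 -2.41, Pdia4 -2.27) and Ddit3 was higher. GMP make granule proteins, and their myeloid marker list (60320 to 61247 CPM) stood above that of CMP (15032 to 18172 CPM); its part was not tested.

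**Figure D3:**
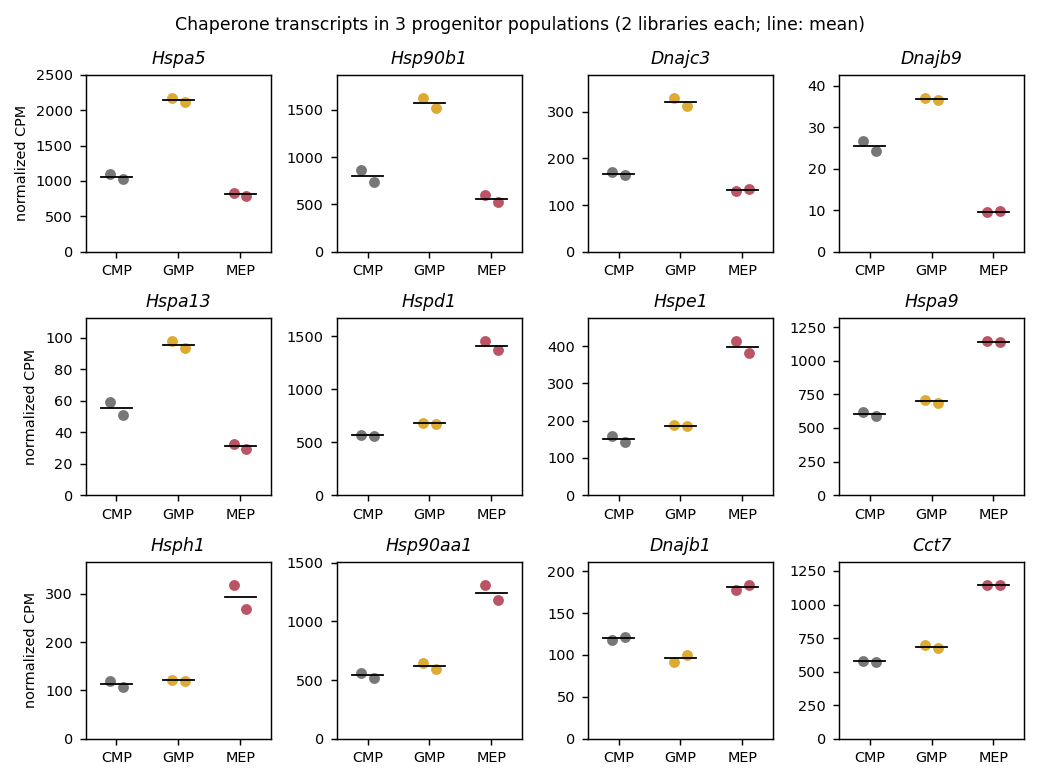
Normalized CPM (linear axes from 0) of 12 chaperone genes in CMP, GMP and MEP, with 1 point per library (2 per population) and a line at the mean. The ER genes Hspa5, Hsp90b1, Dnajc3, Dnajb9 and Hspa13 peak in GMP and are lowest in MEP, whereas Hspd1, Hspe1, Hspa9, Hsph1, Hsp90aa1, Dnajb1 and Cct7 are highest in MEP.

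Most mitochondrial members were higher in MEP. Cell markers differed between the same groups, and their part in the MEP values of the mitochondrial, cytosolic and Cct members was not tested: the erythroid list summed to 344–360 CPM in CMP, 10.3–17.4 in GMP and 6482–6917 in MEP (6 of 6 genes higher in MEP than in CMP), the megakaryocyte list to 521–525, 39.6–75.2 and 24.4–25.1 CPM, and the proliferation list to 1305–1321, 1708–1802 and 1666–1670 CPM. The chaperonin Hspd1 was at 566 and 561 CPM in CMP, 685 and 675 in GMP and 1452 and 1366 in MEP, and its lid Hspe1 at 158 and 143, 189 and 185, and 413 and 381 CPM. Both MEP libraries lay above all others in each gene, with log2 fold changes against CMP of 1.32 ± 0.04 and 1.40 ± 0.06 (adjusted p = 9.0e-12 and 1.5e-10). The genes overlap on opposite strands, with a counting strand not given in the sources used here, and 39.7% of the windows of Hspd1 also occur in other genes, so their reads may be partly exchanged. Hspa9 gave 0.92 and Dnaja3, its J-domain partner, 1.03. In all, 5 of 7 mitochondrial members were higher in MEP than in CMP, and in MEP against GMP 5 were higher and Dnajc15 (-0.38) and Dnajc30 (-0.36) lower. Of 9 mitochondrial quality control genes 6 were higher in MEP than in CMP, the largest being the protease Htra2 (1.34), and Hscb was lower (-0.35).

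In the cytosol, 9 of 11 tested members of the heat-inducible list were higher in MEP than in CMP. From the same list, which includes Hspa8 and Hsp90ab1, 1 was lower, the stress-inducible Hsp70 gene Hspa1b. Hspa1b was at 1.42 and 1.45 CPM in CMP, 1.76 and 2.99 in GMP and 0.59 and 0.54 in MEP (MEP against CMP -1.34 ± 0.39, adjusted p = 0.0088), and in MEP against GMP both Hspa1b (-2.06) and Hspa1a (-3.42) were lower. Hsph1, the nucleotide exchanger of Hspa8, was at 119 and 107 CPM in CMP, 121 and 120 in GMP and 319 and 269 in MEP (MEP against CMP 1.38 ± 0.08, adjusted p = 2.3e-08). Hsp90aa1 was at 564 and 520, 646 and 591, and 1313 and 1178 CPM (log2 fold change of MEP against CMP 1.202 ± 0.06). Hspa8, the constitutive Hsp70, moved less, from 1472 and 1477 CPM in CMP to 1745 and 1825 in GMP and 2254 and 1994 in MEP. Its MEP libraries were the highest here as well.

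All 7 subunits of the Cct group were higher in MEP than in CMP (0.62 to 0.99) and than in GMP (0.46 to 0.74). Cct6b, outside the group, went the other way, at 0.46 and 0.67 CPM in CMP, 0.64 and 0.81 in GMP and 0.34 and 0.17 in MEP, and passed as lower against GMP (-1.49 ± 0.61, adjusted p = 0.049; a call lost with DESeq2) but not against CMP (-1.14). Cct7 was at 580 and 572 CPM in CMP, 695 and 678 in GMP and 1146 and 1148 in MEP. Between GMP and CMP the 7 gave 0.10 to 0.28, and 6 of 7 passed (Cct6b gave 0.36 and did not), but that direction depends on scaling too: with library size alone none of the 7 was higher and 1 was lower. Under the same scaling 7 of 8 ER members stayed higher in GMP and 1 became lower. In MEP against CMP it gave 35 higher and 13 lower, with all 7 of the Cct group higher.

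**Figure D4:**
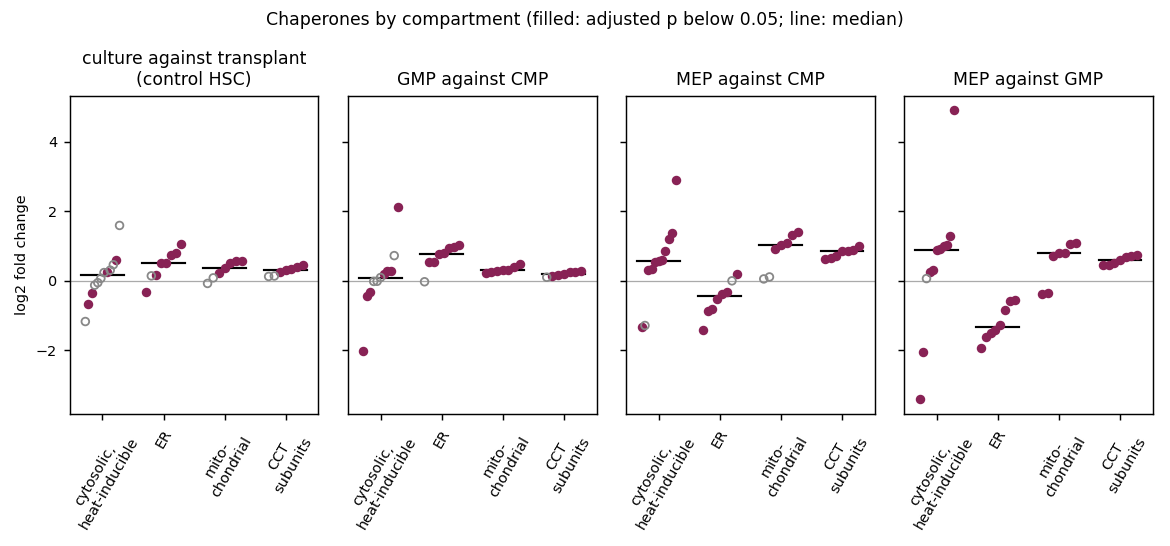
Log2 fold change of chaperone genes grouped by compartment in 4 comparisons, with 1 point per gene, filled where the adjusted p was below 0.05, and a line at the median. In MEP against GMP the 8 ER genes all lie below 0 (median -1.34) and the 7 plotted Cct subunits all above 0 (median 0.59); Cct6b (-1.49) is not plotted.

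Some low members differed far more between progenitors. Dnaja4 was at 3.41 and 3.49 CPM in CMP, 0.42 and 1.30 in GMP and 28.4 and 22.8 in MEP (MEP against GMP 4.91 ± 0.32, adjusted p = 8.1e-08). Dnajb3 was at 1.119 and 0.67, 0.18 and 0.59, and 10.0 and 9.89 CPM. Dnajb2, a neuronal J-domain protein that passes clients to the proteasome, was at 8.57 and 6.46, 3.36 and 4.32, and 22.1 and 18.1 CPM. These J-domain genes were highest in MEP and lowest in GMP by mean.

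Dnajb5, in contrast, was nearly lost in MEP, at 5.24 and 3.67 CPM in CMP, 4.06 and 4.68 in GMP and 0.17 and 0.11 in MEP (MEP against CMP -4.94 ± 0.39). Hspa12a had no read in either MEP library, which with a floor of 3 counts over the group made it at least 4.23-fold lower than CMP and at least 10.6-fold lower than GMP. Hspa2 was at 16.7 and 11.8 CPM in CMP, 22.7 and 26.4 in GMP and 7.70 and 7.79 in MEP. Hspa1a was at 0.36 and 0.21 CPM in CMP, 1.121 and 1.37 in GMP and 0.14 and 0.085 in MEP (GMP against CMP 2.13 ± 0.57, adjusted p = 0.011), and the shared sequence with Hspa1b applies here too. Hspa12b was lower in both GMP (-1.27) and MEP (-1.74) than in CMP. In co-chaperones 15 of 27 genes were higher in MEP than in GMP, among them Bag2 (1.96) and Pfdn1 (1.02), and 4 were lower, among them Fkbp5 (-1.85) and Hsf2 (-0.83).

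As a share of all reads on genes, the 81 members took 0.990% in young and 0.993% in old HSCs (means), 1.40% in cultured and 1.21% in transplanted shControl cells, 1.495% in CMP, 1.66% in GMP and 2.04% in MEP. Young and old HSCs were thus nearly equal in total, while the libraries of MEP (1.99 and 2.09%) stood above those of GMP (1.64 and 1.68%) and CMP (1.47 and 1.52%). The experiments were prepared separately, so values across them are a description only. The Cct group took 0.613% of reads in MEP and 0.383% in GMP, and ER members 0.189% in MEP and 0.436% in GMP.

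**Figure D5:**
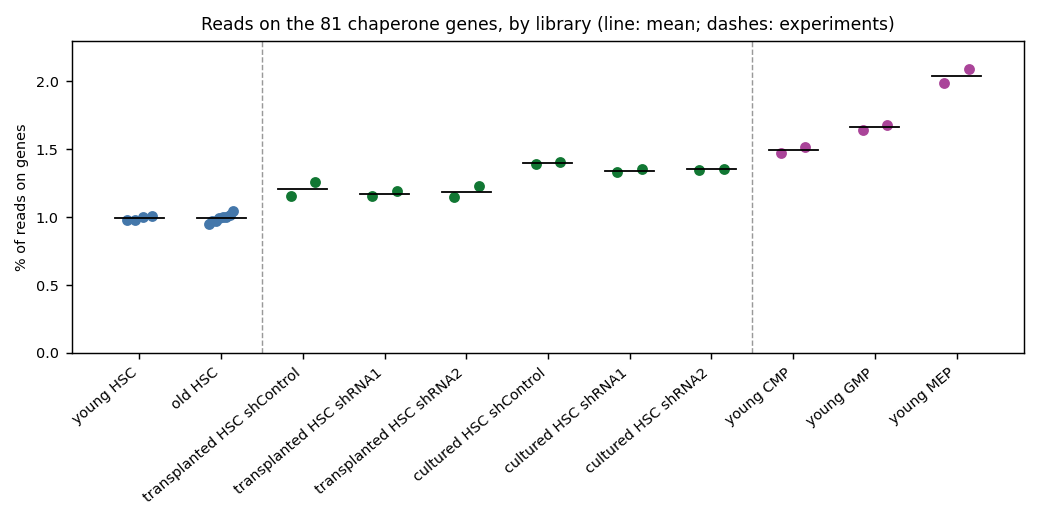
Reads on the 81 chaperone genes as a percentage of reads on all genes, with 1 point per library and a line at the group mean; dashed lines separate the experiments. Young and old HSC libraries lie together near 1%, and the 2 MEP libraries lie highest, at 1.99 and 2.09%.

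Levels between genes were compared per kilobase of merged exons, with TMM over all 30 libraries. Exons of all annotated transcripts were merged, so the length can exceed that of the transcript present, and the order depends on it. The merged length was 2999 bases for Hsp90ab1, 4301 for Hspa8, 2766 for Cct5 and 6778 for Cct7. Hspa8 held more reads than Hsp90ab1 in both MEP libraries (79940 against 72304 and 70151 against 69563). Hsp90ab1, the constitutive Hsp90, was the first member in each of the 11 groups, at 379 ± 22 CPM per kb in young HSCs (SD, n = 4), 380 ± 21 in old HSCs (n = 8), 649 ± 34 in CMP, 764 ± 18.5 in GMP and 824 ± 20 in MEP (n = 2 each). Hspa8 came next in HSCs, at 211 ± 14 in young and 207 ± 17 in old, followed by Cct5 (131 ± 6 and 127 ± 7) and Cct8. The level of Hspa8 was below that of Hsp90ab1 and above that of Cct5 by more than their spread, but 38.6% of the 50-base windows of Hspa8 also occur in other genes, against 3.44% of those of Hsp90ab1 and none of Cct5 and Cct8. The share was 47.5% for Hsp90aa1, and the counting of reads with several matches is unknown. The next place went to Hspa5 in GMP (603 ± 11, with Hspa8 at 494 ± 17) and to Hspd1 in MEP (656 ± 30), where Hspa8 at 608 ± 54 did not differ from it beyond the spread. At the other end, Hspb3 was detected in 4 of 30 libraries with 8 reads in all, Dnajc5g in 10, Hspb7 in 11, and Cct8l1 and Dnajb8 in 15 each.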

How the data were processed

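mRNA-seq was analysed in 30 libraries, ATAC-seq in 8 and ChIP-seq for H3K27ac, H3K4me3 and H3K27me3 in 2 libraries per group. The authors trimmed reads with cutadapt, aligned them to mm10 (mRNA with STAR, chromatin with BWA) and deposited raw counts per gene from featureCounts on a GENCODE annotation, and raw ATAC-seq counts per consensus region of peaks called with MACS2. With the STAR version, the counting strand and the treatment of reads with several matches not given in the sources used here, reads of near-identical or overlapping genes may be split or exchanged. The deposited ChIP-seq signal per peak was normalized by the authors to a fixed number of reads, its averaging over a peak being not given in the sources used here. Fold changes and p-values that the authors deposited beside the signals were not used, nor were 8 columns of per-sample values that could not be tied to a labelled sample.

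Gene counts were fitted with edgeR 4.0.16 in R 4.3.3 (TMM, filterByExpr, robust quasi-likelihood F-test, Benjamini-Hochberg adjustment over all genes passing the filter), within each experiment: old against young HSCs, both hairpins together against control in culture and after transplantation, their interaction, cultured against transplanted control, and the 3 pairs of progenitors. Spike-in rows (92) were left out. An adjusted p below 0.05 was the call. ATAC-seq used the same test on regions above 1.5 CPM in at least 4 libraries, called at 1.5-fold and an adjusted p below 0.01. Promoters ran from 1000 bases before to 100 bases after an annotated start. The gene fits and the ATAC-seq fit were tested on simulated data. With 200 genes changed 2-fold, the gene fits recovered 56.5% (cultured against transplanted control) to 69% (old against young HSCs). A member that did not pass may therefore still have changed. False calls numbered 4 (GMP against CMP) to 22 (hairpins in culture). Alternatives were DESeq2 1.42.0, its size factors, no filter, a replicate block, each hairpin alone, other call rules, leaving out each library, and, added after the data were seen, library size alone, TMM over all 30 libraries and the hairpins against each other.

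Members and gene lists were chosen with earlier results of these data known. Named members were a core set (Hspa1a, Hspa1b, Hspa4l, Hspa5, Hspa8, Hspa9, the Hsp90 genes, Hspd1, Hspe1, Hsph1, Hspb1, Dnaja1, Dnajb1, Dnajb9 and the Cct subunits as a range) and, per comparison and direction, up to 8 members with the largest change among those past the test; other genes came from fixed lists. Of the 81 members 70 to 74 passed the filter. Where nothing says that libraries came from separate cultures or animals, p-values measure only the spread between libraries, which may be technical.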

Additional observations from a re-analysis of the deposited data

Results flagged for a closer look

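In 78 groups of 4 to 10 libraries, each a member's mRNA level or promoter accessibility in 1 group, 3 held a library far from its others by Dixon's criterion, which chance alone meets in about 1 of 20 groups. Hspa1a was at 1.90 CPM in young library 1 against 0.27 to 0.37 CPM in the other young libraries, and Hspa1b was highest in the same library at 5.77 CPM. Dnajc15 was lowest in young library 4 at 30.03 CPM against 32.5 to 33.0 CPM in the others, and young library 4 is the one with the high Jchain level. At the start region of Dnajc6 from position 101496273 of chromosome 4, accessibility was lowest in young library 4 at 12.3 CPM against at least 13.9 CPM in the others.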

How the results depend on the processing

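The members called higher with age numbered 9 with library size alone and 2 with a 1.5-fold limit, and those called lower 2 with DESeq2, 2 with its size factors and 3 with library size alone. For the hairpins in culture, 1 member was higher with DESeq2, 1 without a filter, 3 with shRNA1 alone and 1 with shRNA2 alone, and 7 were lower without a filter, 1 with the replicate block, 15 with shRNA1 alone, 8 with shRNA2 alone and 0 by the rule of the study. DESeq2 called 1 member for the difference between culture and transplantation. In culture against transplantation the higher members numbered 9 with a 1.5-fold limit, and the lower members 17 with all 12 libraries in the fit, 16 with library size alone and 3 with the 1.5-fold limit. In GMP against CMP, library size alone gave 13 higher and 18 lower and the 1.5-fold limit 10 and 3, and library size alone turned Cct2 (-0.049), Cct4 (-0.070), Cct5 (-0.026), Dnajc11 (-0.040), Dnajc5 (-0.067), Hsp90aa1 (-0.027) and Hspa9 (-0.0091) below 0. The adjusted p below 0.05 alone called 28 promoter regions, and the fold alone 2 H3K27ac peaks. Without the further conditions of the main rules these counts can only be larger; otherwise the cause was not tested.

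Leaving out 1 library at a time, the members higher and lower ranged from 8 to 16 and 0 to 2 with age, 0 to 1 and 0 to 4 for the hairpins in culture, 25 to 34 and 3 to 14 for culture against transplantation, 28 to 36 and 5 to 7 for GMP against CMP, 35 to 40 and 11 to 13 for MEP against CMP, and 31 to 33 and 16 to 20 for MEP against GMP. Called promoter regions ranged from 0 to 2 and H3K27ac peaks from 1 to 5. Counts for the transplanted hairpins and the interaction were 0 in all such fits.

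The summed level of the members under TMM over all 30 libraries was 15226 CPM (14761 within the experiment) in cultured shControl, 14302 (13797) in shRNA1, 14694 (14207) in shRNA2, 11493 (11184) in transplanted shRNA1, 8650 (9686) in young HSCs, 8784 (10043) in old HSCs, 16863 (13841) in CMP, 21285 (17897) in GMP and 25171 (20462) in MEP.

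The replicate numbers do not mark shared animals or batches in the labels. Over 20 same-numbered pairs of libraries the correlation of their deviations from the group means ranged from -0.23 to 0.12. In groups of 2 libraries the deviations mirror each other, so both pairs of such a comparison give the same value and are not separate evidence. The replicate block kept 197 single results on their side of the threshold and 7 lost the call. Over all alternatives that keep every library, 997 single results kept direction and side, 64 lost the call, 2 gained it and 7 reversed.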
